A study of Mus musculus with 12 samples.

Results

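The 35 genes described here belong to glycolysis and to the response to low oxygen. Of these, 25 encode enzymes, transporters and regulators of glucose use, and 10 encode oxygen sensors, hypoxia-inducible factors (HIF) or HIF target genes. They were chosen by name from the gene names in the array files, which gave 61 probes for 35 of the 30119 gene names on the array. The brightest probe stood for each gene. In all, 34 members were tested, and 33 of them were well above background on all 12 arrays. Adm, the secreted peptide adrenomedullin, was not well above background on any array and was not tested. Eno2, the neuronal enolase, was not well above background on any of the 4 arrays of transplanted cells.

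The RNA came from mouse GMP, the granulocyte-monocyte progenitors of the marrow, which give rise to neutrophils and monocytes. Runx1-deleted GMP (ko, 4 arrays) came from Runx1fl/fl-Tg(vav-Cre) mice, and wild-type GMP (wt, 4 arrays) from Runx1+/+-Tg(vav-Cre) mice. The vav promoter drives Cre in blood cells generally, so the deletion was not limited to GMP, and wt mice carried Cre as well. The other groups began as bone marrow of Runx1fl/fl-Tg(vav-Cre) mice taken 3 days after 150 mg/kg 5-fluorouracil. That marrow was infected with a MIG retrovirus carrying GFP together with RUNX1-ERt2, a RUNX1 fusion that tamoxifen activates (RUNX1-ERt2, 2 arrays), or with ERt2, the hormone-binding part alone (ERt2, 2 arrays). Lethally irradiated recipients received the cells, were given tamoxifen (49.5 µg/g on 3 days) after 6 weeks, and viable GFP+ GMP were sorted 24 h later. The labels of all 4 transplanted samples name tamoxifen or 4-OHT, although the protocol describes induction in only part of the mice. The ages of the mice were not given in the sources used here, nor whether arrays of 1 group came from separate animals. A p-value here therefore reflects variation from sample to sample, part of which may be technical.

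Glycolysis turns glucose into pyruvate in the cytosol. Glucose enters through GLUT carriers, hexokinases trap it as a phosphate, and phosphofructokinase sets the pace of the later steps. Lactate dehydrogenase then interconverts pyruvate and lactate, and a monocarboxylate transporter exports the lactate, while pyruvate dehydrogenase kinases switch off pyruvate dehydrogenase. In low oxygen the prolyl hydroxylases encoded by the Egln genes lose activity, HIF-1α and HIF-2α are stabilised, and HIF raises many genes of this same pathway. Neutrophils and their precursors are known for their reliance on glycolysis.

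Signal is given as log2 of the processed intensity minus the 75th percentile of the array, so 0 is the level of that percentile. Such values are compared between groups for 1 probe at a time, not between genes. On each array 53.5% to 63.2% of 39429 probes were well above background and 0 spots were saturated. The median processed signal was 43.1 to 59.7 on transplanted arrays and 65.4 to 98.6 on ko and wt arrays. The ko and wt replicates 1 and 2 shared slide 1, and replicates 3 and 4 shared slide 2. The arrays of slide 2 carry the protocol name GE1_105_Jan09, and those of slides 1, 3 and 4 carry GE1_107_Sep09. RUNX1-ERt2 lay on slide 4 and ERt2 on slide 3, so for every comparison with a transplanted group the slide and the group cannot be told apart. Each of the 11 GMP markers was well above background on 1 or more arrays of every group. Neither Runx1 probe reported the deletion: the brighter one averaged 3.40 ± 0.58 in ko GMP and 1.71 ± 0.54 in wt GMP (SD, n = 4 each), and 2.13 ± 0.29 in RUNX1-ERt2 GMP and 3.22 ± 0.11 in ERt2 GMP (SD, n = 2 each). In bulk RNA, fewer cells of a type and less RNA per cell cannot be told apart.

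Many of these genes carry the core of the HIF response element near their start sites. RefSeq windows (GRCm38.p6) from 250 bases before to 50 bases after an annotated start were found for 32 of the 35 members, and were not found for Slc2a3, Epas1 and Ndrg1. The letters ACGTG or GCGTG, on either strand, stood in 37 of the 46 member windows (80.4%) and in 43.8% of all 32851 windows. The palindrome CACGTG was counted on both strands. The member windows had a median GC content of 61.2%, against 52.7% in all windows. The RUNX letters TGTGGT or TGCGGT, on either strand, stood in 15.2% of member windows and in 22.4% of all windows, and sites of either kind were counted even where they overlapped. Given here are the windows of the 6 members with the largest significant change in ko against wt or RUNX1-ERt2 against ERt2 that hold the HIF core, which is in capitals. They read 5′ to 3′ on the strand of the gene, and a match is a description of letters, not of binding.
Ldhb, chr6:142507908-142508207, minus strand: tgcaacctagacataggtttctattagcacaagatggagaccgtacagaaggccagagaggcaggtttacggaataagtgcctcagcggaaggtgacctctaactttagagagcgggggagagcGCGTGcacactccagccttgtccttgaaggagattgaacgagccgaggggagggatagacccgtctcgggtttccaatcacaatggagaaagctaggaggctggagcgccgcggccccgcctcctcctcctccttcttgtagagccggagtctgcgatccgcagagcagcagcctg
Vegfa, chr17:46025114-46025413, minus strand: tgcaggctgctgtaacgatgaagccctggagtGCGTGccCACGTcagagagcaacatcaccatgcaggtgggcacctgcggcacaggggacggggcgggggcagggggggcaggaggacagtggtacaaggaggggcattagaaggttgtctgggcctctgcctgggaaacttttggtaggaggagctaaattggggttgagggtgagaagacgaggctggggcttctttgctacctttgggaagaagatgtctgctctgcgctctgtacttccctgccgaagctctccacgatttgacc
Hk3, chr13:55021336-55021635, minus strand: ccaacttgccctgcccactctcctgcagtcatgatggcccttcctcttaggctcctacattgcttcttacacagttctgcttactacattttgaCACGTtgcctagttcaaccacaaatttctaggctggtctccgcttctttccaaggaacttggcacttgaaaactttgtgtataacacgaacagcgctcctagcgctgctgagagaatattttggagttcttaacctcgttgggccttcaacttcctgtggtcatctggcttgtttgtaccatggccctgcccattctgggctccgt
Pkm2, chr9:59656977-59657276, plus strand: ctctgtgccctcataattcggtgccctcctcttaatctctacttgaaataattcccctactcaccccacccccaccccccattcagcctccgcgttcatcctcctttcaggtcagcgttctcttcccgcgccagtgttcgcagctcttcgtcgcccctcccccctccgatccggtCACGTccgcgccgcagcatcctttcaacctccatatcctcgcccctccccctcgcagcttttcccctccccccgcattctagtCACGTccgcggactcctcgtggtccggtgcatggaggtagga
Egln3, chr12:54203825-54204124, minus strand: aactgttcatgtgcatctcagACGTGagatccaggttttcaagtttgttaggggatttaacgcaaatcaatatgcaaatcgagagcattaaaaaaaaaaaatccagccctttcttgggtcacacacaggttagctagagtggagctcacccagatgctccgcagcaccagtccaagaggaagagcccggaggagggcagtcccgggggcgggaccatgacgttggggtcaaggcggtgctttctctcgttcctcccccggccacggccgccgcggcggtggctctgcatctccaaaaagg
Slc16a3, chr11:120948817-120949116, plus strand: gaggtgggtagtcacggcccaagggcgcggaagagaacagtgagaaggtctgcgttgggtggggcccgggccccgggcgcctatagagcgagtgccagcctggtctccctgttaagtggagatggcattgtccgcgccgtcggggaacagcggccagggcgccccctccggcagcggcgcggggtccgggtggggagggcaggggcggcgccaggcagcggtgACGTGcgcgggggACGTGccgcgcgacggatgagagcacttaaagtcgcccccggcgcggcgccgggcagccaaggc
Slc16a3, Pkm2 and Vegfa each hold 2 copies of the core in these windows. For Vegfa this is the downstream one of 2 annotated starts, and the upstream window holds neither letter set. Pkm2 also has 2 windows, and the one not given here holds neither letter set. Of these 6 windows, the one of Hk3 also holds RUNX letters, in 2 places. The Pkm2 name is that of the array, and the current symbol is Pkm.

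The first question was what deletion of Runx1 did to these genes in native GMP. In ko GMP 7 members were lower and 4 were higher than in wt GMP, by limma with Benjamini-Hochberg adjustment over all 17907 genes and a threshold of 0.05. That is 32.4% of the 34 tested, beside 25.3% of all genes, of which 11.5% were higher and 13.8% lower. The falls were in hexokinase 2, in several enzymes of the pathway's trunk, in lactate dehydrogenase B, in Pdk1 and in the oxygen sensor Egln3. Within slide 2 alone Ldhb was the 1 member that passed, beside 2.12% of all genes. The rises were in aldolase C, the glucose carrier Slc2a1 and the HIF targets Ankrd37 and Ndrg1. With each array scaled to its median in place of the 75th percentile, 3 members were lower and 3 higher, and over all genes 1397 were lower and 1876 higher, where the 75th percentile gave 2472 lower and 2065 higher. The median log2 difference was −0.16 over the members and −0.05 over all genes.

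Hk2, the inducible hexokinase that commits glucose to the cell, was the 1 of 3 hexokinases that passed. Its probe lies at chr6:82675056-82675115 (mm9, from the array file). Its signal was 0.24, 0.24, 0.13 and 0.16 on the ko arrays, against 0.96, 0.88, 0.91 and 1.15 on the wt arrays. Every ko array lay below every wt array, with a difference of −0.78 ± 0.09 (SE, adjusted p = 0.00046), or 1.72-fold lower. The difference was −0.68 on slide 1 and −0.88 on slide 2. Hk3, the myeloid hexokinase, was 3.34, 3.27, 2.12 and 2.18 on ko arrays, against 3.29, 3.43, 3.50 and 2.95 on wt arrays. Its 2 low values were the ko arrays of slide 2, the slide 1 difference being −0.05 and the slide 2 difference −1.08, and the gene did not pass the test (−0.56 ± 0.24, adjusted p = 0.117). Hk1, the widely expressed hexokinase, gave −0.03 ± 0.11 at its brightest probe (adjusted p = 0.847), whereas its other 2 probes gave 0.58 and 0.79.

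In the upper part of the pathway, Pfkp, the platelet-type phosphofructokinase, was −0.16, 0.05, −0.29 and −0.41 on ko arrays, against 0.40, 0.63, 0.48 and 0.01 on wt arrays. The wt replicate 4 fell within the ko range, and the difference was −0.58 ± 0.13 (SE, adjusted p = 0.012). It was −0.57 on slide 1 and −0.59 on slide 2. The call was lost with the array median as scale (adjusted p = 0.0577) and within slide 1 (adjusted p = 0.0557) or slide 2 (adjusted p = 0.307). Its other probe, with no value on wt replicate 1, gave −0.15. Tpi1, triose phosphate isomerase, was 4.10, 4.32, 4.42 and 4.06 on ko arrays, against 4.57, 4.74, 5.03 and 4.71 on wt arrays. These groups did not overlap (−0.54 ± 0.13, adjusted p = 0.018, 1.45-fold lower), and the second probe gave −0.49. Tpi1 kept its call in 17 of 24 other settings and lost it without wt replicate 2 (adjusted p = 0.0548), ko replicate 1 (adjusted p = 0.0564) or ko replicate 4 (adjusted p = 0.0556).

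Aldoc, the brain-type aldolase, moved the other way. Its signal was −0.32, −0.25, 0.29 and 0.51 on ko arrays, against −0.95, −0.80, −0.40 and −0.65 on wt arrays, a difference of 0.76 ± 0.13 (SE, adjusted p = 0.0035). All ko arrays were above all wt arrays, 1.69-fold on average. Aldoa, the main aldolase of most tissues, gave 0.00 ± 0.11, with a 95% interval of −0.25 to 0.26. Its partner enzymes Gpi1 (−0.24), Pfkl (−0.06) and Pfkm (0.15) did not pass the test either.

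Below the triose step, Pgam1, the phosphoglycerate mutase of most tissues, was the 1 member of 7 that passed. It was 5.07, 5.06, 4.66 and 4.22 on ko arrays, against 5.40, 5.62, 5.90 and 5.23 on wt arrays, with no overlap (−0.78 ± 0.20, adjusted p = 0.022, 1.72-fold lower). The slide 1 difference was −0.45 and the slide 2 difference −1.12. Without ko replicate 4 the adjusted p was 0.0620 and without wt replicate 2 it was 0.0519, and 18 of 24 other settings kept the call. Gapdh gave −0.23 ± 0.10 (adjusted p = 0.131), and its 8 probes all gave values between −0.25 and −0.17. The array file places 2 of these probes on chromosomes 7 and 8, whereas the gene lies on chromosome 6. Pgk1 (−0.34), Eno1 (−0.06), Eno2 (−0.44), Eno3 (0.15) and Pkm2 (−0.16) did not pass. The only Pgk1 probe is placed by the array file (mm9) on chromosome 3, whereas the gene lies on chromosome X, so the identity of its signal is uncertain.

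Ldhb, the lactate dehydrogenase subunit typical of oxidative tissues, had the largest difference among the members in native cells. Its probe lies at chr6:142438770-142438829 (mm9). It was 0.53, 0.59, −0.25 and −0.68 on ko arrays, against 1.56, 1.56, 1.55 and 1.28 on wt arrays. All ko arrays were below all wt arrays, by −1.44 ± 0.27 (SE, adjusted p = 0.0060) or 2.71-fold, and the call was kept in all 24 other settings that were run. Slide 1 gave −0.997 and slide 2 gave −1.88. Ldha, the muscle-type subunit, gave −0.28 ± 0.11 (adjusted p = 0.0853), with −0.36 and −0.30 at its other probes. Slc16a3, the lactate exporter MCT4, gave −0.24 ± 0.14 (adjusted p = 0.243).

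Of the 2 glucose carriers, Slc2a1 (GLUT1) was 0.59, 0.85, 0.22 and 0.42 on ko arrays, against 0.22, 0.23, 0.20 and −0.02 on wt arrays. The ko replicate 3 lay within the wt range. The difference of 0.36 ± 0.11 (SE, adjusted p = 0.037) did not survive a block for the replicate number (adjusted p = 0.0713) or the removal of any 1 of 6 arrays, up to an adjusted p of 0.107 without wt replicate 2. Pdk1, the kinase that switches off pyruvate dehydrogenase, was 0.19, 0.34, 0.11 and 0.15 on ko arrays, against 0.60, 0.50, 0.53 and 0.24 on wt arrays. The difference of −0.26 ± 0.09 (SE, adjusted p = 0.04996) stood at the threshold, was lost with the replicate block (adjusted p = 0.0986), and was kept in 3 of 24 other settings. Leaving out any 1 of 11 arrays ended it, with an adjusted p of up to 0.144 without ko replicate 1. Slc2a3 (GLUT3, 0.31), Pfkfb3 (0.08) and Pfkfb4 (−0.15), the last 2 being makers of the phosphofructokinase activator, did not pass.

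Among oxygen sensors, Egln3 (PHD3), a prolyl hydroxylase that is itself a HIF target, was −0.19, −0.31, −0.60 and −1.01 on ko arrays. On wt arrays it was 0.26, 0.55, 0.66 and 0.02. No ko array reached the lowest wt array, and the difference was −0.90 ± 0.18 (SE, adjusted p = 0.0078, 1.86-fold lower), with −0.81 at the second probe. Egln1 (PHD2) gave −0.21 ± 0.28. The HIF subunits did not pass: Hif1a gave 0.05 ± 0.13 with a 95% interval of −0.25 to 0.34, and Epas1 (HIF-2α) gave −0.10 ± 0.09 with an interval of −0.31 to 0.11. A second, dimmer Epas1 probe gave 0.93 ± 0.46.

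Of the 5 tested members listed here under HIF targets, 2 were higher and 0 lower. That count leaves out Egln3, which was lower and is listed with the sensors, and the genes of glycolysis that HIF can raise. Ankrd37, an ankyrin-repeat gene known as a HIF-1 target, was −1.44, −1.54, −1.57 and −1.24 on ko arrays, against −2.14, −2.32, −2.56 and −1.99 on wt arrays. All ko arrays were above all wt arrays (0.81 ± 0.15, adjusted p = 0.0062, 1.75-fold higher). With normexp background correction the difference was 0.47 and did not pass (adjusted p = 0.1698). Ndrg1, a stress- and hypoxia-responsive gene of differentiating cells, was 3.40, 2.73, 3.86 and 4.28 on ko arrays, against 2.40, 2.33, 3.104 and 3.26 on wt arrays. Both groups were higher on slide 2 and they overlapped over the slides, while within each slide both ko arrays were above both wt arrays, by 0.70 and 0.89 on slide 1 and slide 2. The difference (0.79 ± 0.22, adjusted p = 0.030) was lost when any 1 of 6 arrays was left out, with an adjusted p of up to 0.0915 without ko replicate 4. Bnip3, a mitophagy receptor, gave 0.19, and P4ha1, a collagen prolyl hydroxylase, gave −0.36, neither past the test. Vegfa, the vascular growth factor, gave −0.70 on slide 1 and 0.53 on slide 2, which left a mean of −0.09 ± 0.28.

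Markers of other cells moved in the same comparison. The summed signal of 14 monocyte and macrophage markers, relative to the array's 75th percentile, was 25.5 to 67.5 in ko GMP and 60.7 to 130 in wt GMP, and 5 of 13 tested were lower, 0 higher. The 13 megakaryocyte markers summed to 51.5 to 68.0 in ko GMP and 11.7 to 17.8 in wt GMP, with 6 of 12 tested higher and 0 lower. The 14 late neutrophil markers, 1 of them higher and 0 lower, overlapped widely, with 34.1 to 310 in ko GMP and 65.4 to 312 in wt GMP. The GMP markers summed to 431 to 554 in ko GMP and 605 to 852 in wt GMP, with 4 of 11 lower and 2 higher. Of 15 erythroid markers, 4 were higher and 1 was lower in ko than in wt GMP. The 10 T and NK cell markers summed to 10.4 to 15.5 in ko GMP and 22.6 to 36.3 in wt GMP, with 2 of 9 tested lower and 0 higher. The 10 basophil and mast cell markers summed to 38.2 to 65.6 in ko GMP and 24.9 to 29.2 in wt GMP, with 3 higher and 5 lower. Among these lists Mertk, Cd8a, Fcer1a and Cma1 were not well above background in ko GMP, nor was Cd8a in wt GMP. The part of these cell types in the member values was not tested.

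**Figure D1:**
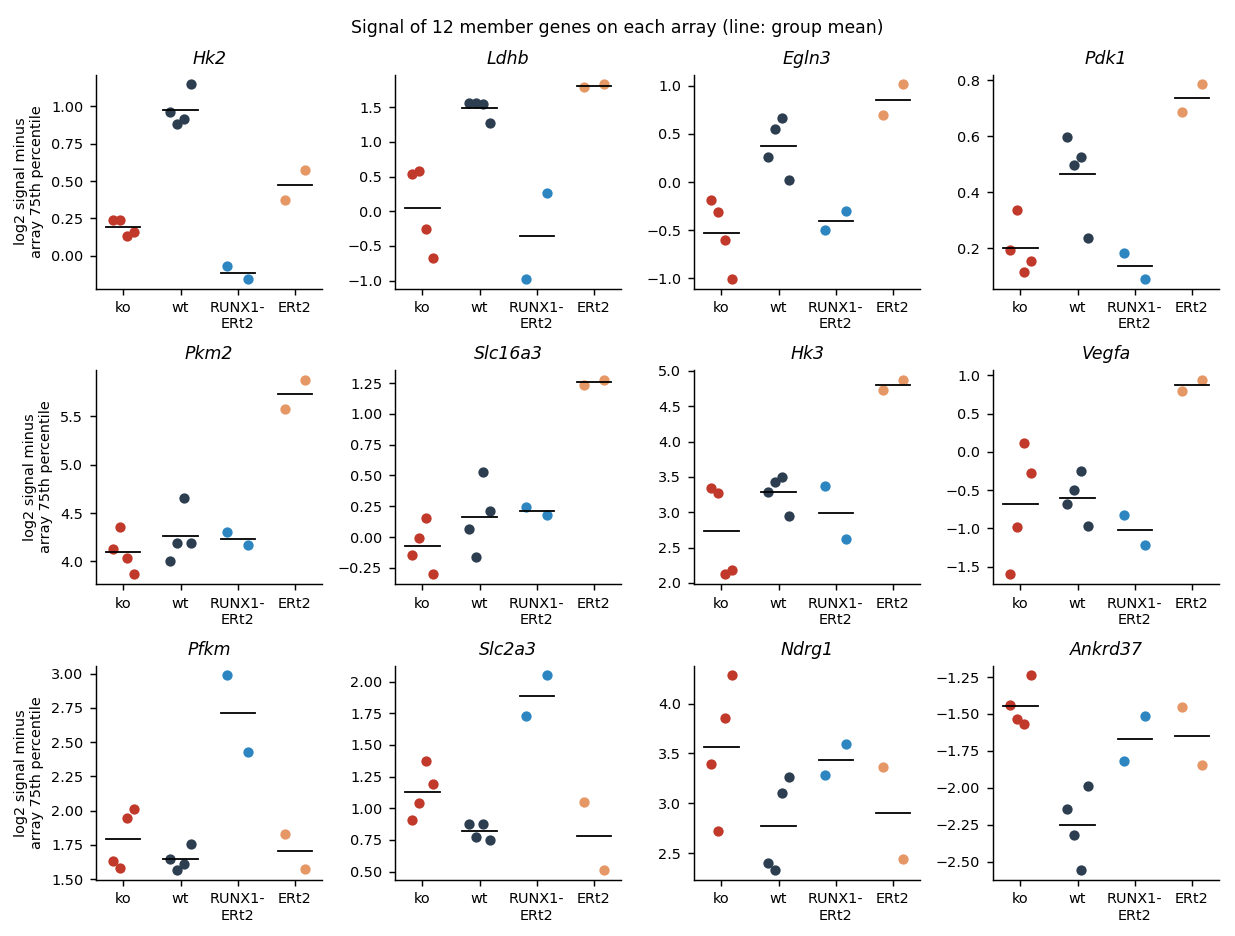
Signal of 12 members on each of the 12 arrays, as log2 processed intensity minus the 75th percentile of the array; each point is an array, each line a group mean, and each panel has its own scale. Hk2, Ldhb and Egln3 separate ko from wt, while Pkm2, Slc16a3, Hk3 and Vegfa are high in ERt2 alone, with Pkm2 at 5.58 and 5.88 there and at most 4.66 elsewhere.

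The second question was what return of RUNX1 activity did in Runx1-deleted, transplanted GMP. With RUNX1-ERt2, 13 members were lower and 2 higher than with ERt2 alone, 44.1% of those tested beside 19.1% of all genes (10.2% higher, 8.87% lower). With the array median as scale, 8 members were lower and 2 higher, and over all genes 1468 were lower and 1352 higher, where the 75th percentile gave 1588 and 1830. The median difference was −0.40 over the members and −0.00 over all genes. Lower were 2 of 3 hexokinases, glucose-6-phosphate isomerase, phosphofructokinase L, aldolase A, pyruvate kinase and lactate dehydrogenase B. So were the lactate exporter, all 3 regulators of glycolytic flux on the list, Vegfa and Egln3. Higher were phosphofructokinase M and GLUT3. These calls rest on 2 arrays against 2, and on a spread estimated over all 12 arrays. With only these 4 arrays in the fit 5 members passed, beside 9.24% of all genes. They were Hk3, Pkm2, Slc16a3, Vegfa and Egln3.

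Pkm2, pyruvate kinase of the last step, was 4.30 and 4.17 on RUNX1-ERt2 arrays, against 5.58 and 5.88 on ERt2 arrays. The difference was −1.49 ± 0.23 (SE, adjusted p = 0.0021), or 2.81-fold lower. Slc16a3 was 0.24 and 0.18 on RUNX1-ERt2 arrays, against 1.24 and 1.28 on ERt2 arrays (−1.05 ± 0.19, adjusted p = 0.0055), and its second probe also gave −1.05. Hk3 was 3.37 and 2.62 on RUNX1-ERt2 arrays, against 4.72 and 4.87 on ERt2 arrays (−1.81 ± 0.34, adjusted p = 0.0059, 3.50-fold lower). For Pkm2, Slc16a3 and Hk3 the groups stood far apart relative to their own spread, and their calls were kept in all 23 other settings that were run.

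Ldhb, lower in ko than in wt GMP, was lower with RUNX1-ERt2 as well. It was −0.97 and 0.27 on RUNX1-ERt2 arrays, which differed widely from each other, against 1.79 and 1.83 on ERt2 arrays. The difference was −2.16 ± 0.39 (SE, adjusted p = 0.0045), or −1.54 without RUNX1-ERt2 replicate 1 and −2.78 without RUNX1-ERt2 replicate 2. With only the 4 arrays compared it did not pass (adjusted p = 0.0640). Vegfa was −0.83 and −1.22 on RUNX1-ERt2 arrays, against 0.79 and 0.94 on ERt2 arrays. That 3.70-fold difference (−1.89 ± 0.40, adjusted p = 0.011; second probe −1.61) lost its call without ERt2 replicate 2 (adjusted p = 0.0566) or RUNX1-ERt2 replicate 2 (adjusted p = 0.0679).

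Hk1 gave 0.45 at its brightest probe and did not pass (adjusted p = 0.0695). Hk2 was −0.07 and −0.15 on RUNX1-ERt2 arrays, against 0.38 and 0.58 on ERt2 arrays (−0.59 ± 0.12, adjusted p = 0.010). Egln3 was −0.50 and −0.31 on RUNX1-ERt2 arrays, against 0.70 and 1.02 on ERt2 arrays (−1.26 ± 0.26, adjusted p = 0.0086; second probe −1.32). Pdk1 was 0.18 and 0.09 on RUNX1-ERt2 arrays, against 0.68 and 0.79 on ERt2 arrays (−0.60 ± 0.12, adjusted p = 0.0085). For Hk2, Egln3 and Pdk1 the groups did not overlap, but with 1 array left out of an arm some calls ended. For Hk2 the adjusted p was 0.0688 without ERt2 replicate 2 and 0.0627 without RUNX1-ERt2 replicate 2. For Pdk1 it was 0.0522 and 0.0548 without the same arrays, and for Egln3 it was 0.0583 without ERt2 replicate 2 and 0.0514 without RUNX1-ERt2 replicate 1.

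In the upper pathway 3 of 7 members were lower and 1 was higher. Pfkl, the liver-type phosphofructokinase, was 1.03 and 0.91 on RUNX1-ERt2 arrays, against 1.54 and 1.54 on ERt2 arrays (−0.57 ± 0.14, adjusted p = 0.021). Gpi1, glucose-6-phosphate isomerase, was 6.80 and 6.61 on RUNX1-ERt2 arrays, against 7.22 and 7.24 on ERt2 arrays (−0.53 ± 0.15, adjusted p = 0.041). Aldoa was 6.84 and 6.53 on RUNX1-ERt2 arrays, against 7.09 and 7.33 on ERt2 arrays (−0.53 ± 0.16, adjusted p = 0.049). The RUNX1-ERt2 arrays were the lower ones for each gene, but these calls stood near the threshold. Pfkl kept its call in 15 of 23 other settings, Gpi1 in 8 and Aldoa in 7, with adjusted p of up to 0.113, 0.199 and 0.255 without RUNX1-ERt2 replicate 2. The replicate block ended the call of Aldoa (adjusted p = 0.0858).

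Both activator-making enzymes were lower. Pfkfb3 was 1.99 and 1.76 on RUNX1-ERt2 arrays, against 2.24 and 2.49 on ERt2 arrays (−0.49 ± 0.15, adjusted p = 0.044; second probe −0.67). Pfkfb4 was 0.34 and 0.48 on RUNX1-ERt2 arrays, against 1.36 and 0.99 on ERt2 arrays (−0.76 ± 0.23, adjusted p = 0.048). Both were lower on each RUNX1-ERt2 array, yet each call was kept in 6 of 23 other settings. The replicate block gave adjusted p of 0.0806 for Pfkfb3 and 0.0598 for Pfkfb4. Leaving out 1 array gave adjusted p of up to 0.223 for Pfkfb3, without RUNX1-ERt2 replicate 2, and up to 0.236 for Pfkfb4, without ERt2 replicate 1.

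Against this, Slc2a3, the high-affinity glucose carrier GLUT3, was 1.73 and 2.05 on RUNX1-ERt2 arrays, against 1.05 and 0.51 on ERt2 arrays (1.11 ± 0.20, adjusted p = 0.0044). Pfkm, the muscle-type phosphofructokinase, was 2.99 and 2.43 on RUNX1-ERt2 arrays, against 1.83 and 1.57 on ERt2 arrays (1.01 ± 0.19, adjusted p = 0.0053). Both were higher on each RUNX1-ERt2 array, 2.15-fold and 2.01-fold on average, and kept their calls whichever array was left out. With only these 4 arrays in the fit both lost them (adjusted p = 0.0762 for Slc2a3 and 0.0889 for Pfkm). Thus among the phosphofructokinase subunits Pfkl fell, Pfkm rose and Pfkp gave −0.53 ± 0.18 (adjusted p = 0.0732).

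The 19 members that did not pass ranged from −0.71 (Eno1, adjusted p = 0.0813) to 0.54 (Ndrg1, adjusted p = 0.283). Gapdh gave −0.43 ± 0.15 at its brightest probe (adjusted p = 0.0725), and its 8 probes all gave negative values, from −0.66 to −0.28. Ldha differed by −0.01 ± 0.15, with a 95% interval of −0.35 to 0.34, although Ldhb differed strongly. Epas1 differed by −0.00 ± 0.13 and Ankrd37 by −0.02 ± 0.22, while Hif1a gave 0.35 ± 0.18 (adjusted p = 0.240).

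Myeloid markers differed between these groups too. The late neutrophil markers summed to 153 to 181 in RUNX1-ERt2 GMP and 679 to 857 in ERt2 GMP, with 2 of 14 lower and 0 higher (Fcnb by −4.48, Chil3 by −4.15). The monocyte markers summed to 45.5 to 93.5 in RUNX1-ERt2 GMP and 140 to 164 in ERt2 GMP, with 9 of 13 lower and 0 higher (F13a1 by −5.40). The GMP markers summed to 474 to 643 in RUNX1-ERt2 GMP and 905 to 1020 in ERt2 GMP, with 5 of 11 lower and 0 higher. The erythroid markers summed to 158 to 209 in RUNX1-ERt2 GMP and 95.05 to 171 in ERt2 GMP, with 3 of 15 higher and 0 lower. The T and NK cell markers summed to 16.6 to 17.1 in RUNX1-ERt2 GMP and 37.5 to 49.98 in ERt2 GMP, with 1 of 9 higher and 1 lower. Of these lists, Mertk, Cd8a and Ncr1 were not well above background in RUNX1-ERt2 GMP, nor were Cd3g and Cd8a in ERt2 GMP. ERt2 is thus also the group with the highest neutrophil, monocyte and GMP marker sums, and the part of this in the member values was not tested.

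**Figure D2:**
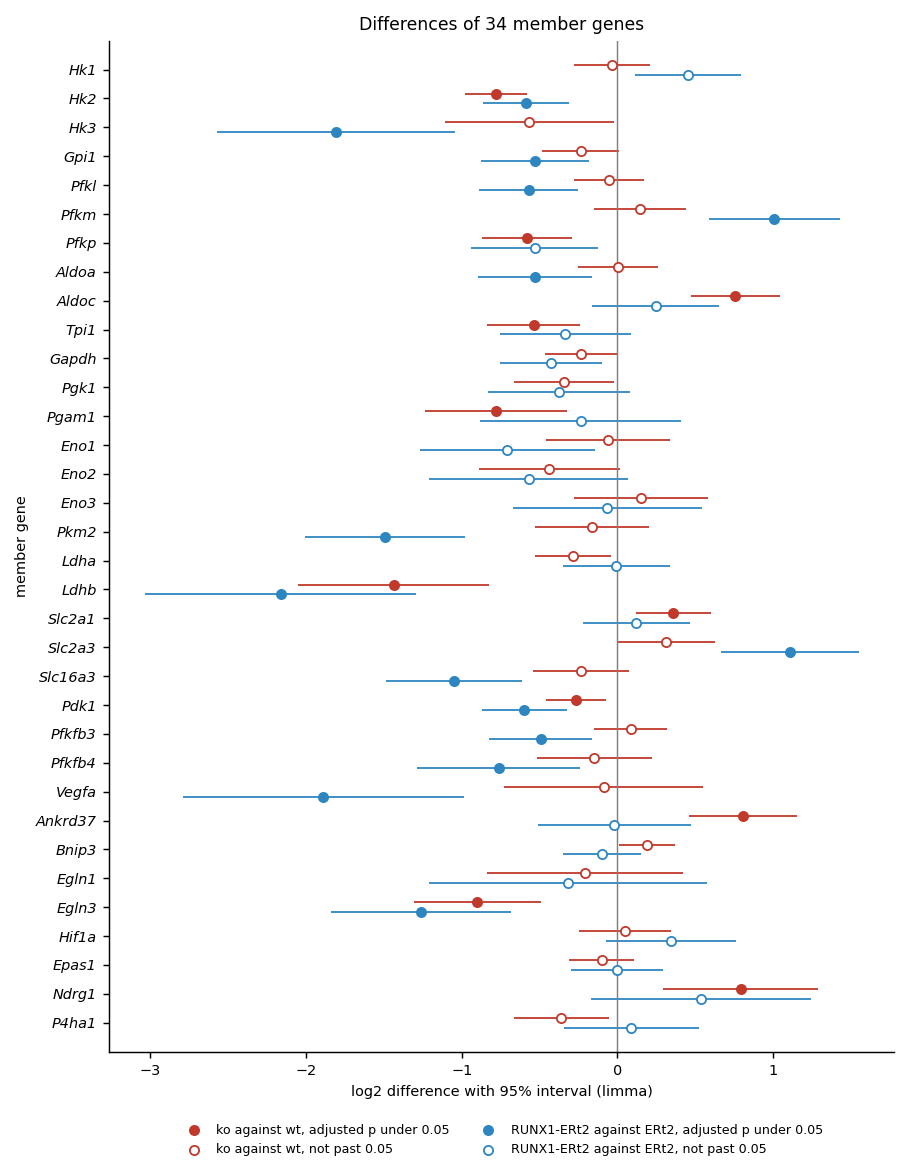
Log2 differences of the 34 tested members (one row each) in ko against wt GMP and in RUNX1-ERt2 against ERt2 GMP, with 95% intervals from limma; filled points have an adjusted p under 0.05 and open points do not. In the second comparison 13 filled points lie left of 0 and 2 right of it, and Hk2, Ldhb, Pdk1 and Egln3 lie left of 0 with filled points in both.

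**Figure D3:**
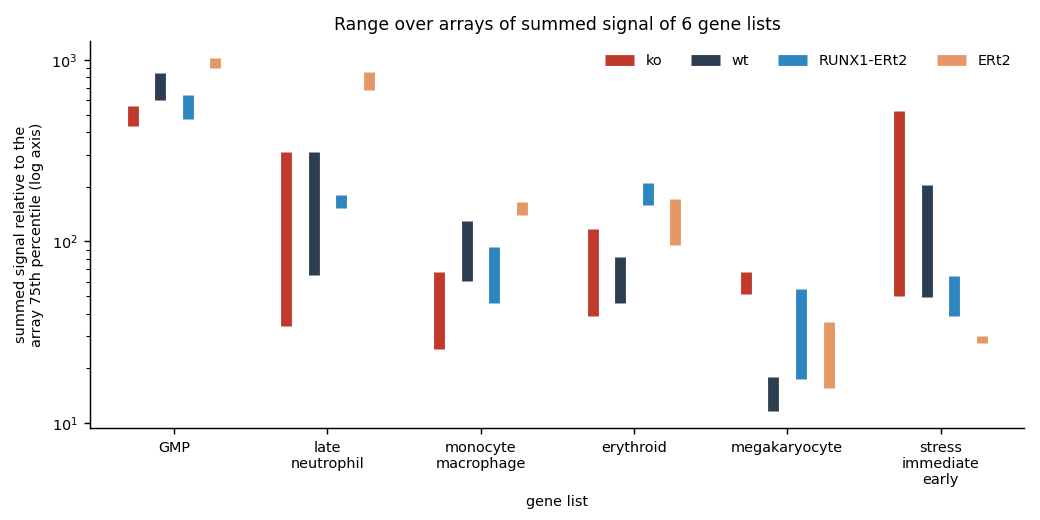
Lowest to highest summed signal over the arrays of a group for 6 gene lists, in units of the array's 75th percentile, on a log axis. ERt2 has the highest sums of GMP, late neutrophil (679 to 857) and monocyte markers, and ko has the highest megakaryocyte sums (51.5 to 68.0).

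The 2 comparisons share no arrays. If a gene depended on RUNX1 in the same way in native and in transplanted cells, ko against wt and RUNX1-ERt2 against ERt2 would have opposite signs. Of the members, 4 passed in both, 36.4% of the 11 called in the first and 26.7% of the 15 called in the second, and all 4 had the same sign. Hk2, Ldhb, Pdk1 and Egln3 were lower in ko than in wt GMP, and RUNX1-ERt2 GMP had less of them than ERt2 GMP. Members with opposite signs in both numbered 0. Over all genes 1176 passed in both, 25.9% of the first list and 34.4% of the second, so the members' shares lie near those of all genes, and 815 of them (69.3%) had opposite signs.

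The difference between the effects was tested directly in the same fit, as the ko minus wt difference less the ERt2 minus RUNX1-ERt2 difference. It passed for 17 members, 13 negative and 4 positive, of the 34 tested, beside 18.2% of all genes (9.42% higher, 8.75% lower). The members' median was −0.64 and that of all genes −0.03. With the array median as scale, 9 were negative and 5 positive, beside 14.2% of all genes (1365 higher, 1177 lower). A negative value here means that lack of RUNX1 activity went with less signal in native GMP than it did in transplanted GMP. The largest was Ldhb (−3.60 ± 0.47, adjusted p = 0.0012), which was lower without RUNX1 in native cells and higher without RUNX1 activity in transplanted cells. Hk3 (−2.37), Egln3 (−2.16), Vegfa (−1.98), Pkm2 (−1.66), Hk2 (−1.37), Slc16a3 (−1.28), Pfkp (−1.11), Tpi1 (−0.87), Pdk1 (−0.86), Gpi1 (−0.76), Gapdh (−0.66) and Pfkl (−0.63) were also negative. Slc2a3 (1.42), Ndrg1 (1.33), Pfkm (1.15) and Aldoc (1.00) were positive.

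Of these, Gapdh had passed neither single comparison. Its signal was 6.87, 6.91, 7.35 and 7.07 on ko arrays, against 7.02, 7.13, 7.61 and 7.36 on wt arrays. It was 7.19 and 6.97 on RUNX1-ERt2 arrays, against 7.40 and 7.62 on ERt2 arrays. The ko and wt ranges overlapped over the slides, while within each slide both ko arrays lay below both wt arrays, and the transplanted groups did not overlap. The test of the difference (adjusted p = 0.033) kept its call in 8 of 21 other settings. Ndrg1 kept its call in 7 of 21, and lost it with the replicate block (adjusted p = 0.0617) and without ERt2 replicate 2 (0.87, adjusted p = 0.160). Pfkl kept its call in 9 of 21, with an adjusted p of up to 0.131 without RUNX1-ERt2 replicate 2. Tpi1 and Gpi1 kept theirs in 13 each, and each lost it without RUNX1-ERt2 replicate 2 (adjusted p = 0.113 and 0.0974). Vegfa lost its call without ERt2 replicate 1 (adjusted p = 0.0523), ERt2 replicate 2 (adjusted p = 0.0888) or RUNX1-ERt2 replicate 2 (adjusted p = 0.0943). Hk2, Hk3, Pfkm, Pfkp, Pkm2, Ldhb, Slc2a3, Slc16a3, Pdk1 and Egln3 kept theirs in all 21.

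The levels of the 4 groups show where the members stand apart. ERt2 GMP share the deletion with ko GMP, and differ by transplantation, 5-fluorouracil, the virus, tamoxifen and the slide. In that comparison 22 members were higher and 2 lower in ERt2 GMP, 70.6% beside 56.9% of all genes (30.2% higher, 26.7% lower), with a median of 0.57 over the members and 0.06 over all genes. With each array scaled to its median in place of the 75th percentile, those medians were 0.76 and 0.25, the member counts were the same, and over all genes 6709 were higher and 3746 lower, where the 75th percentile gave 5408 and 4781. RUNX1-ERt2 GMP, set against wt GMP, had 6 members higher and 6 lower, 35.3% beside 46.1% of all genes (21.9% higher, 24.1% lower). There the median was 0.07 over the members and 0.00 over all genes, or 0.20 and 0.14 with the array median, which gave 8 members higher and 3 lower. Over all genes that scale gave 4622 higher and 3286 lower, where the 75th percentile gave 3926 and 4324. With only probes well above background on all 12 arrays, which left out Eno2, RUNX1-ERt2 against wt GMP had 6 members higher and 5 lower, beside 46.1% of all genes. These comparisons share their arrays with the 2 above. Late neutrophil markers were higher in ERt2 than in ko GMP for 9 of 14 and lower for 0, erythroid markers higher in RUNX1-ERt2 than in wt GMP for 8 of 15 and lower for 0. The 12 stress and immediate early genes summed to 27.5 to 30.0 in ERt2 GMP and 50.1 to 523 in ko GMP, and to 38.9 to 64.1 in RUNX1-ERt2 GMP and 49.5 to 204 in wt GMP. The part of these in the member values was not tested.

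Pkm2 stood at 5.73 ± 0.21 in ERt2 GMP (SD, n = 2), against 4.10 ± 0.20 in ko GMP (SD, n = 4), a 3.09-fold difference (1.63 ± 0.20 SE, adjusted p = 0.00015). In RUNX1-ERt2 GMP it was 4.23 ± 0.10 (SD, n = 2) and in wt GMP 4.26 ± 0.28 (SD, n = 4), which differed by −0.03 with a 95% interval of −0.47 to 0.42. The same held for Slc16a3, at 1.26 ± 0.03 in ERt2 GMP and −0.08 ± 0.19 in ko GMP, but 0.21 ± 0.05 in RUNX1-ERt2 GMP and 0.16 ± 0.29 in wt GMP. Hk3 averaged 4.80 ± 0.11 in ERt2 GMP and 2.73 ± 0.67 in ko GMP, and 2.99 ± 0.53 in RUNX1-ERt2 GMP and 3.29 ± 0.25 in wt GMP. For all 3, both ERt2 arrays were above each of the other 10 arrays. RUNX1-ERt2 and wt GMP did not differ beyond their spread for these genes, although the interval for Hk3 ran from −0.96 to 0.36.

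Other members were raised in both transplanted groups. Bnip3 averaged 2.24 ± 0.01 in ERt2 GMP and 1.55 ± 0.10 in ko GMP (adjusted p = 0.00035), and 2.14 ± 0.01 in RUNX1-ERt2 GMP and 1.36 ± 0.12 in wt GMP (adjusted p = 0.00024). These are differences of 0.68 and 0.77 at its brightest probe, while its other 2 probes gave 0.10 and 0.20 in the first comparison and 0.21 and 0.44 in the second. Aldoa averaged 7.21 ± 0.17 in ERt2 GMP and 6.03 ± 0.09 in ko GMP, and 6.68 ± 0.22 in RUNX1-ERt2 GMP and 6.03 ± 0.20 in wt GMP. Eno3, the muscle enolase, averaged 0.77 ± 0.31 in ERt2 GMP and −0.15 ± 0.51 in ko GMP, and 0.71 ± 0.22 in RUNX1-ERt2 GMP and −0.30 ± 0.23 in wt GMP. Each of these 3 passed in both comparisons. Without RUNX1-ERt2 replicate 1, Aldoa lost its call against wt (adjusted p = 0.0554), and without RUNX1-ERt2 replicate 2 Eno3 did (adjusted p = 0.0644).

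Hk2 averaged 0.48 ± 0.14 in ERt2 GMP and 0.19 ± 0.05 in ko GMP, and −0.11 ± 0.06 in RUNX1-ERt2 GMP and 0.97 ± 0.12 in wt GMP. From high to low the order was therefore wt, ERt2, ko and RUNX1-ERt2. RUNX1-ERt2 and wt GMP differed by −1.09 ± 0.11 (SE, adjusted p = 5.95e-05). The neighbouring ERt2 and ko groups differed by 0.28 ± 0.11 (SE, adjusted p = 0.048), a call that 6 of 22 other settings kept and the replicate block ended (adjusted p = 0.0835). Ldhb was also lower in RUNX1-ERt2 than in wt GMP (−1.84 ± 0.33, adjusted p = 0.0020), as was Egln3 (−0.77 ± 0.22, adjusted p = 0.019, but 0.115 without RUNX1-ERt2 replicate 1).

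The 2 members lower in ERt2 than in ko GMP were Aldoc, at −1.41 ± 0.22 in ERt2 GMP and 0.06 ± 0.41 in ko GMP, and Hk1, at 5.96 ± 0.24 in ERt2 GMP and 6.73 ± 0.31 in ko GMP. The other Hk1 probes gave −0.32 and 0.68, so they did not share a direction. Higher in RUNX1-ERt2 than in wt GMP were Pfkm (1.06), Aldoa (0.65), Eno3 (1.01), Slc2a3 (1.07), Ankrd37 (0.59) and Bnip3 (0.77). Ankrd37 kept this call in 16 of 22 other settings, and lost it with normexp (0.35, adjusted p = 0.336) and without RUNX1-ERt2 replicate 2 (adjusted p = 0.206). Lower, beside Hk2, Ldhb and Egln3, were Pdk1 (−0.33, lost with the replicate block at adjusted p = 0.0632), Aldoc (−0.46) and Eno2. Since Eno2 was not well above background on either RUNX1-ERt2 array, its fold is a bound, at least 1.23-fold lower. That bound is taken against the dimmest signal that was well above background on those arrays. The Eno2 probe entered the test only through the wt arrays, where it was high, so its adjusted p of 0.0019 is no independent support. With normexp the Eno2 call was lost (adjusted p = 0.425). Aldoc kept its call in 12 of 22 other settings and gave −0.29 without RUNX1-ERt2 replicate 1 (adjusted p = 0.274), and Pdk1 kept its call in 11.

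**Figure D4:**
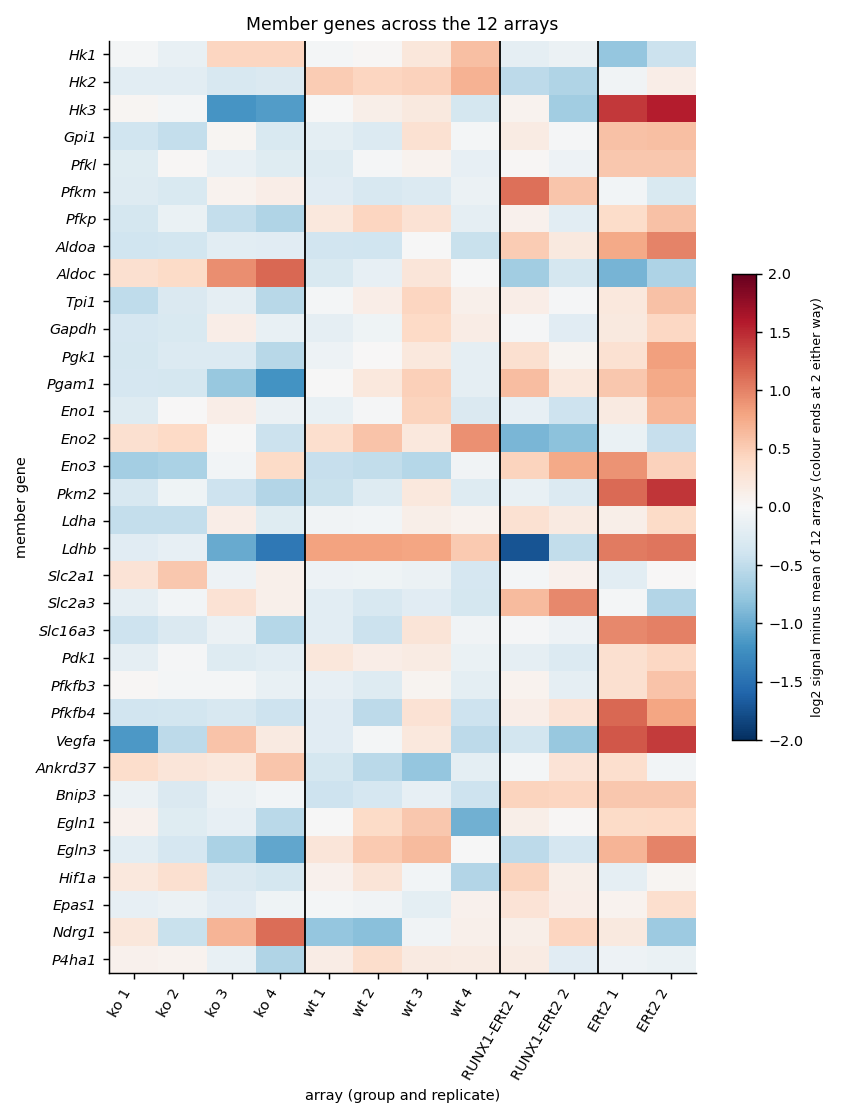
Signal of the 34 tested members on the 12 arrays, as log2 minus the member's mean over the arrays, with colours ending at 2 in either direction and black lines between groups. The ERt2 columns are mostly red, with 22 members higher than in ko, and among the ko columns those of slide 2 (3 and 4) are the bluer ones for Hk3, Pgam1 and Ldhb.

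**Figure D5:**
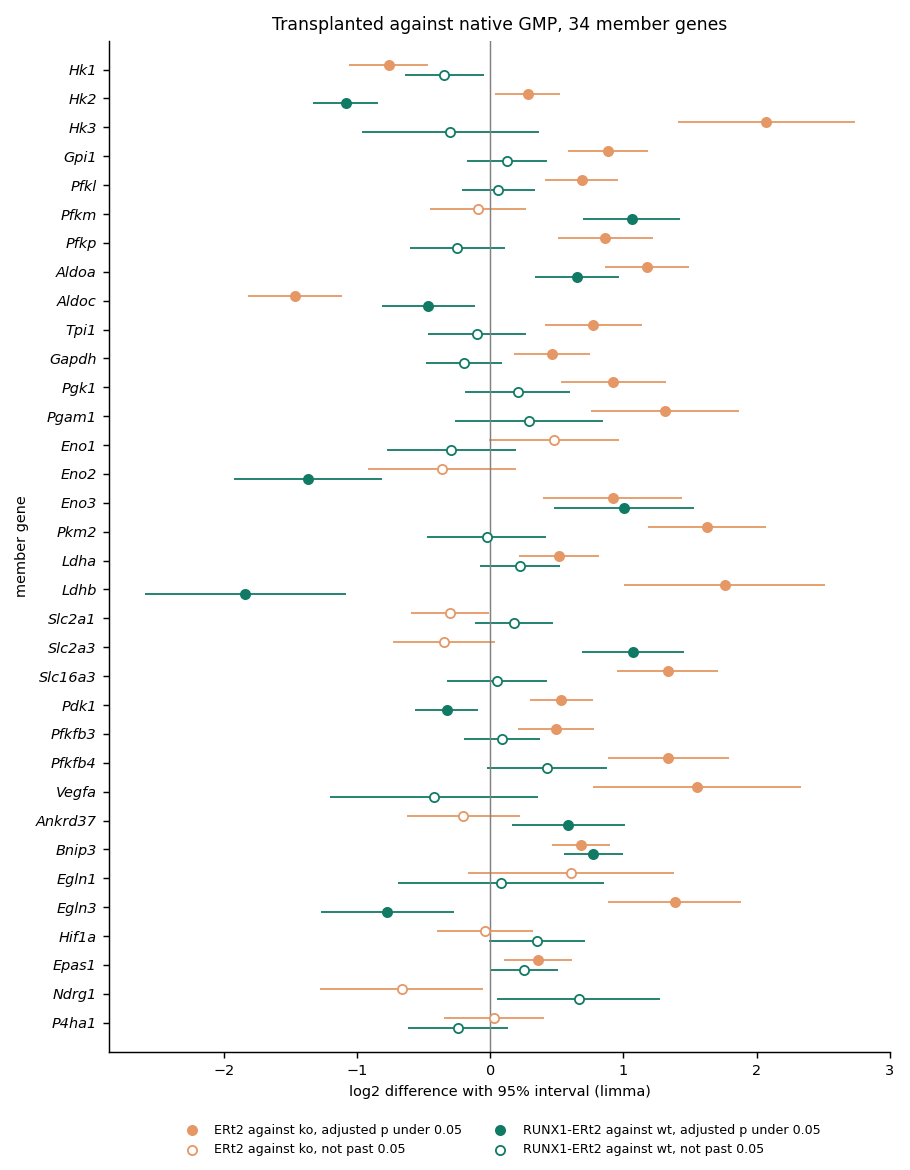
Log2 differences of the 34 members in ERt2 against ko GMP and in RUNX1-ERt2 against wt GMP, with 95% intervals from limma; filled points have an adjusted p under 0.05. Most filled points of the first comparison lie right of 0 (22 of 24), while those of the second lie 6 on each side.

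The wider pathway gives these members a setting. In ko against wt GMP, 6 of 10 pentose phosphate genes were lower and 0 higher, among them Taldo1 (−0.44 ± 0.08, adjusted p = 0.0041), Pgls (−0.49) and Tkt (−0.42), which shunt sugar phosphates toward NADPH and ribose. Of 28 respiratory chain genes 14 were lower and 0 higher, led by Cox5a of complex IV (−0.77 ± 0.13, adjusted p = 0.0029), and the list's median was −0.33. Of 27 tested pyruvate and TCA cycle genes 6 were lower, such as Mpc1, the pyruvate carrier (−0.59), and Dlat of pyruvate dehydrogenase (−0.31). The 1 that was higher was Pdk2, a kinase of the same family as Pdk1 (0.93 ± 0.13, adjusted p = 0.0014). With RUNX1-ERt2 against ERt2 the same lists had 1 higher and 1 lower, 1 higher and 0 lower, and 0 of 27 in either direction by limma, the last with 2 at an unadjusted p under 0.05.

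Further HIF targets were split in native cells, 4 higher and 9 lower of 25 tested, where 25.3% of all genes passed. Ak4, a mitochondrial adenylate kinase, fell by 3.03 ± 0.15 on the log2 scale (adjusted p = 4.81e-06), and Car12, a carbonic anhydrase, fell by 0.94. Kdm3a, a histone demethylase, rose by 0.64 ± 0.09 (adjusted p = 0.0014). Of the HIF machinery, 3 of 15 tested were higher, namely Hif3a (1.63), Cited2 (0.75), which competes with HIF for its coactivator, and Siah1a (0.41), and 2 were lower. Txnip, an inhibitor of glucose uptake, was the 1 of 20 regulators of glycolysis that passed (1.06 ± 0.15, adjusted p = 0.0013). Of the remaining glycolytic isoenzymes, 3 of 17 were higher and 2 lower, with Pfkfb2 at 1.04 and Pgam2 at −0.74.

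With RUNX1-ERt2 against ERt2, where 19.1% of all genes passed, the remaining isoenzymes had 2 higher and 1 lower of 17. Pgam2, the muscle mutase, was not well above background on either ERt2 array and was at least 1.90-fold higher (adjusted p = 5.88e-05). The others were Pklr, the pyruvate kinase of liver and red cells (2.81 ± 0.81, adjusted p = 0.040), and Pgm1, which links glycogen to glycolysis (−1.11 ± 0.15, adjusted p = 0.0012). So Pklr and Pkm2, the 2 pyruvate kinase genes, differed in opposite directions, beside erythroid markers whose call count was 3 higher and 0 lower of 15. The further HIF targets were 3 higher and 2 lower of 25. Among them Tgfb3, not well above background on either ERt2 array, was at least 1.44-fold higher (adjusted p = 0.0020), and Plod1 gave −1.13. The Tgfb3 probe entered the test only through the RUNX1-ERt2 arrays, where it was high, so its call is no independent support. By limma 0 of 15 HIF machinery genes passed, with 3 at an unadjusted p under 0.05. Rheb, an activator of mTORC1, was higher by 1.44 ± 0.17 (adjusted p = 0.00048). It gave −3.00 in ERt2 against ko GMP, −1.75 in RUNX1-ERt2 against wt GMP and −0.18 in ko against wt GMP.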

How the data were processed

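Cy3-labelled RNA was hybridised to 12 one-colour Agilent arrays (mm9 design). The deposited intensity values are scanner output that Agilent Feature Extraction 10.7.3.1 had background-subtracted, per the file headers, whereas the submitters' processing notes name version 9.1. The authors' deposited table of the series holds the same signal divided per array, with column medians of 0.91 to 0.94, and served as an alternative; its ko and wt columns follow another replicate of the same group (1 with 3, 2 with 4). That table is on a linear scale, with a scaling factor that is unknown. Control spots and spots marked as outliers (129 to 207 per array) were left out. The log2 processed signal minus the array's 75th percentile was analysed, keeping a probe if all arrays of 1 or more groups measured it well above background, and the brightest probe per gene. Of 39429 probes, 27228 were named by accession, 3581 by symbol and 565 by synonym in RefSeq, and 8055 kept the file's name. limma 3.58.1 in R 4.3.3 fitted 4 group means and a slide term over 12 arrays (7 residual and 2.11 prior degrees of freedom), two-sided, adjusted over 17907 genes. The number of arrays limits the precision. The code was tested on simulated data. Alternatives were normexp, quantile normalization, the array median, the deposited table, other probe filters, the mean of a gene's probes (without probes missing on an array), no slide term, single slides, the compared arrays alone, a replicate block and leaving out each array.

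Members and gene lists were chosen with earlier results of these data known. Per-array values are given for members past the threshold in a comparison within the native or transplanted cells or in the test of their difference, and up to 3 genes are named per further list. The numbers were taken as pairs in the replicate block alone, while the main fit had a slide term. Deviations of same-numbered ko and wt arrays from their group means correlated at 0.37, 0.35, 0.18 and 0.67. Differently numbered arrays of the same slide gave 0.45 (ko 1, wt 2), 0.32 (ko 2, wt 1), −0.06 (ko 3, wt 4) and 0.21 (ko 4, wt 3). Within slides, same-numbered arrays gave −0.03 on slide 1 and 0.43 on slide 2, so slide 1 does not mark the numbers as pairs. Same-numbered transplanted arrays gave −0.19.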

Additional observations from a re-analysis of the deposited data

Results flagged for a closer look

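Among the 68 groups of 4 arrays examined (ko and wt for each of 34 members), 4 held an array far from the other 3 by Dixon's criterion, where chance gives about 1 in 20. All 4 were wt arrays. Aldoa was 6.33 on wt replicate 3 and 5.90 to 5.95 on the others. Ldhb was 1.28 on wt replicate 4 and 1.55 to 1.56 on the others. Slc2a1 was −0.017 on wt replicate 4 and 0.20 to 0.23 on the others, and P4ha1 was −2.54 on wt replicate 2 and −2.74 to −2.71 on the others.

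For 17 members the difference associated with lack of RUNX1 activity was not the same in native cells (ko minus wt) and in transplanted cells (ERt2 minus RUNX1-ERt2), by limma with adjusted p under 0.05. Negative, counting native minus transplanted, were Ldhb (−3.60), Hk3 (−2.37), Egln3 (−2.16), Vegfa (−1.98), Pkm2 (−1.66), Hk2 (−1.37), Slc16a3 (−1.28), Pfkp (−1.11), Tpi1 (−0.87), Pdk1 (−0.86), Gpi1 (−0.76), Gapdh (−0.66) and Pfkl (−0.63). Positive were Slc2a3 (1.42), Ndrg1 (1.33), Pfkm (1.15) and Aldoc (1.00). In the transplanted cells slide and group cannot be told apart for any of them.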

How the results depend on the processing

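In ko against wt GMP the count of members past the threshold was 11. It was 6 with normexp background correction, 6 with the array median as scale, 6 within slide 1 and 1 within slide 2, and ran from 6 to 11 as single arrays were left out. In RUNX1-ERt2 against ERt2 GMP it was 15, then 9 with normexp, 5 with only the arrays of the groups compared, and 7 to 18 with 1 array left out. The test of the difference of effects gave 17, then 11 with normexp and 10 to 21 with 1 array left out. Left-out arrays that moved a count by over 1.5 times were wt replicate 2 (6), ko replicate 1 (7) and ko replicate 4 (6) in the first comparison. In the second they were ERt2 replicate 2 (7) and RUNX1-ERt2 replicate 2 (7), and in the test of the difference ERt2 replicate 2 (11) and RUNX1-ERt2 replicate 2 (10). With the replicate block the counts were 9, 12, 23, 11 and 16, in the order ko against wt, RUNX1-ERt2 against ERt2, ERt2 against ko, RUNX1-ERt2 against wt and the difference of effects, and no call changed beyond those given above. Crossed pairing of the transplanted arrays, chosen after seeing the data, gave 18 for the second comparison. Over all settings 1 called value changed sign: Epas1 in ERt2 against ko was −0.055 (adjusted p = 0.889) as the mean of its probes. Calls kept in every setting run numbered 1 of 11, 3 of 15, 17 of 24, 5 of 12 and 10 of 17 in the same order. Normexp also lowered the share of all genes called, to 11.0%, 7.77%, 35.8%, 26.7% and 6.98% in that order, and testing all probes without the filter lowered it to 11.2%, 8.12%, 51.4%, 24.2% and 7.52%. Within slide 2 it was 2.12% in ko against wt, and with only the compared arrays 9.24% in RUNX1-ERt2 against ERt2. The cause of each change was not tested. With 2 arrays per transplanted group, leaving out 1 leaves an arm whose lone array is assumed to vary like the others, and dim probes such as Eno2 and Adm limit what can be measured.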
